A study of Mus musculus with 2 samples.

Results

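The genes described here encode 10 cytokines and chemokines that B cells make: the interleukins and interleukin subunit Il6, Il10 and Ebi3, the tumour necrosis factor family ligands Tnf, Lta and Ltb, and the chemokines Ccl3, Ccl4, Ccl17 and Ccl22. They were found by the gene name that the array files attach to a probe, and all 10 of 10 were on the array, among 27670 gene names. Each had 1 probe. On each array all 10 gave signal well above background in miR-181b RNA and in control RNA. The same held for 17560 gene names in all, which are called measured genes below.

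RNA was compared between mouse B cells carrying a retroviral miR-181b-GFP vector and B cells carrying the control-GFP vector. Both groups were primary spleen B cells of C57BL/6 mice, obtained by removing CD43-bearing cells, and both were grown in lipopolysaccharide (LPS, 25 µg/ml) and interleukin-4 (IL-4, 10 ng/ml). Both were exposed to virus for 20 h with polybrene (8 µg/ml), a polymer that helps virus attach, and GFP-positive cells were sorted on day 2. The study has 1 RNA per vector, and both RNAs were hybridised together on 2 arrays, with miR-181b RNA in Cy5 on array 1 and in Cy3 on array 2. The arrays are a technical dye swap of the same RNA pair and count as 1 replicate, so no test between conditions could be made and no p-value is given. The age, sex and number of mice are not given in the labels, and neither is a promoter for the vectors. The array held 0 genes under the names searched for the miR-181b genes themselves, so the microRNA's level was not checked here.

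A microRNA guides a silencing complex to messenger RNAs that pair with its seed, a short stretch near its 5′ end, and the paired messengers are translated less or degraded. Cytokine messengers are a special case among transcripts, since many carry AU-rich elements and are short-lived. In B cells, LPS acts through Toll-like receptor signalling and NF-kappaB, and IL-4 acts through STAT6. Together they induce several of the genes below.

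The mature microRNAs of the family are printed to show the seed, bases 2 to 8 in capitals, which was identical in miR-181a, miR-181b, miR-181c and miR-181d (RefSeq, GRCm38.p6).
miR-181b-5p: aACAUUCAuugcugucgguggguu
miR-181a-5p: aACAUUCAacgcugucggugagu

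The 60-base probes of the array were searched on their own strand for letters that pair with the seed. TGAATGT, which pairs with bases 2 to 8, was in 393 of 41174 probes (0.955%) and in 0 of the 10 members' probes. The shorter GAATGT, which pairs with bases 2 to 7 and is contained in TGAATGT, was in 2.56% of probes and in those of Il6, Ltb and Tnf. In the Il6 probe it was followed by A, as it was in 0.675% of probes. The 30 bases around each match are shown, with the matching letters (and the A after them in Il6) in capitals.
Il6 probe: gatggtttcttgGAATGTAtaagtttacct
Ltb probe: gactgacggtgcGAATGTgtgaatcgtgat
Tnf probe: cactggagcctcGAATGTccattcctgagt
A probe covers a small piece of a transcript, so these letters describe the probes and say nothing of sites elsewhere in the messenger. None of these 3 genes had the same sign of ratio on both arrays (values below).

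Promoters of the members were searched for letters bound by the factors that LPS and IL-4 activate, since several of these genes are known targets of both. RefSeq (GRCm38.p6) gave 8 of the 10 promoters as 300 bases each, 250 before and 50 after the start site. Those of Il10 and Ccl4 were not in the table used. The NF-kappaB consensus, searched on both strands, was in 4.51% of 32851 promoters and in those of Il6, Ebi3 and Ltb. TTC and GAA with any 4 bases between, the spacing that STAT6 prefers, reads the same on both strands, and was in 6.95% of promoters and in those of Ccl17 and Lta. Each match is printed in capitals in a 30-base window, 5′ to 3′ on the strand of the gene.
Il6 promoter, chr5:30013060-30013089, plus strand: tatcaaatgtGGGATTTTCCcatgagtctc
Ebi3 promoter, chr17:55952569-55952598, plus strand: gccccttcctGGGGCTTCCCcgttggccat
Ltb promoter, chr17:35194410-35194439, plus strand, consensus on the other strand: aagggtgttcGGAAAGTCCCcgggcagggg
Ccl17 promoter, chr8:94810289-94810318, plus strand: cgagtgaccaTTCTCTGGAAagccacaaac
Lta promoter, chr17:35205423-35205452, minus strand: tgctcggccgTTCACTGGAActcctgggcc
The matches are descriptions of letters, not evidence of binding.

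By the mean of the arrays, no member differed by 1.5-fold between the RNAs, and the means were small throughout. The mean of Ltb came from saturated ratios of opposite sign, -0.85 and 0.83, so it does not give the size of any difference in Ltb. Every log2 ratio below is miR-181b over control, as the mean of the arrays, and the value after ± is how far each array lay from that mean. Il10 (-0.25 ± 0.01) and Ccl4 (-0.20 ± 0.01) were lower in miR-181b RNA on both arrays, as were Ebi3 and Ccl17 by less. Ccl22 (0.31 ± 0.07) was the member higher on both arrays, and the other 5, namely Il6, Tnf, Lta, Ltb and Ccl3, had opposite signs on the arrays.

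In counts, 4 of 10 members were lower on both arrays, against 27.4% of all measured genes, and 1 of 10 was higher on both, against 24.5%. The remaining 5 of 10 had opposite signs, as had 48.1% of measured genes. With a mean past 1.5-fold and arrays of equal sign, 0 members were lower and 0 were higher, where 0.513% and 0.82% of measured genes were. Counts of this size among 10 genes are not a result about the members. All 10 means lay within the middle 95% of measured genes, from -0.36 to 0.41. The members' median log2 ratio was -0.04 (array 1 -0.06, array 2 -0.12), and the median of all measured genes was -0.01 (array 1 0.01, array 2 -0.02). The median size of the ratio, sign aside, was 0.11 among members and 0.098 among all measured genes. The median distance of an array from the mean was 0.092 among members and 0.091 among all. These medians do not describe every member, since Ltb had arrays 0.84 from their mean and Ccl22 lay past the middle 95% of genes of like intensity (both described below).

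**Figure D1:**
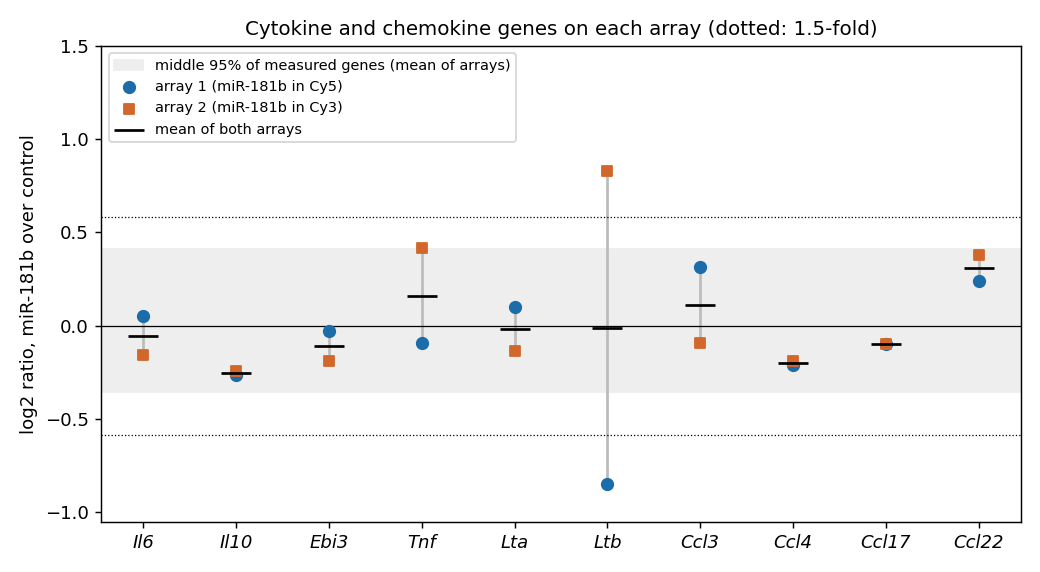
Log2 ratio of miR-181b over control RNA for each of the 10 genes, on array 1 (circles) and array 2 (squares), with the mean of both (bar). The shaded band holds the middle 95% of measured genes and dotted lines mark 1.5-fold. All 10 means lie within the band, and the arrays of Ltb lie on opposite sides at -0.85 and 0.83.

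Il10 encodes interleukin-10, the cytokine by which regulatory B cells restrain inflammation. Its normalised spot intensity, in arbitrary units that include the offset of 50 added in background correction, was 4604 in miR-181b RNA against 5525 in control RNA on array 1. On array 2 it was 4305 in miR-181b RNA against 5101 in control RNA. The ratio was thus 1.19-fold lower in miR-181b RNA, with -0.26 and -0.24 on the arrays, and 6.01% of measured genes had a lower mean. The Il10 probe was printed in 10 spots on each array, and all 20 spots lay below 0, from -0.30 to -0.24 on array 1 and from -0.28 to -0.20 on array 2. Of 137 measured probes printed 10 times, 17 had all spots below 0 on both arrays (12.4%) and 20 had all spots above 0. The repeated sign in Il10 thus occurred in other probes of that kind too. The 10 spots measure the same labelled RNAs and are not replicates of the condition.

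Il6 encodes interleukin-6, which supports plasma cell formation and T follicular helper cells. Its normalised intensity was 861 in miR-181b RNA against 831 in control RNA on array 1, and 733 in miR-181b RNA against 818 in control RNA on array 2. The ratios of 0.05 and -0.16 gave a mean of -0.05 ± 0.10. On array 1 the spots fell on both sides of 0, with 6 of 10 above, and on array 2 all 10 lay below 0. No direction common to both arrays was seen for Il6.

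Ebi3 encodes the beta chain that pairs with the product of Il27 to form interleukin-27 and with that of Il12a to form interleukin-35, a suppressive cytokine of B cells. Its normalised intensity was 28361 in miR-181b RNA against 28893 in control RNA on array 1, and 24962 in miR-181b RNA against 28406 in control RNA on array 2. The mean log2 ratio was -0.11 ± 0.08, from -0.03 and -0.19. The sign was the same on both arrays, but array 1 was close to 0. Of its partner chains and the related chains, 2 of 4 were measured. Il12a was at -0.23 ± 0.06 and Il27 at 0.10 ± 0.07, so the partners of Ebi3 stood on opposite sides of 0. Il12b and Il23a were not well above background in either RNA.

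**Figure D2:**
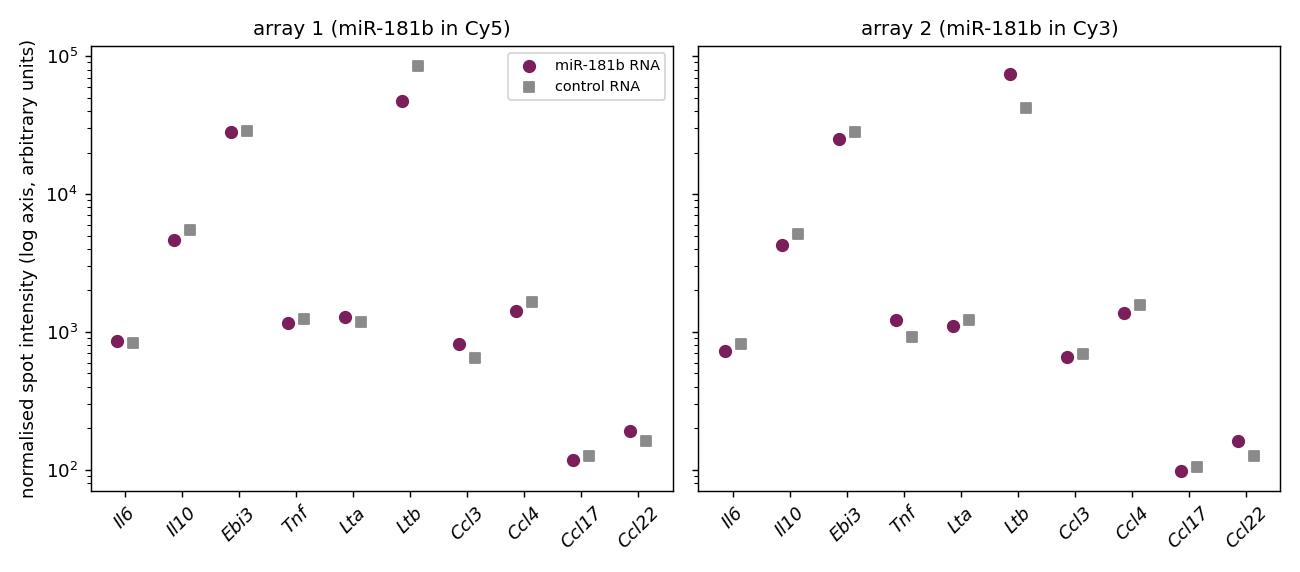
Normalised spot intensity (log axis, arbitrary units) of the 10 genes in miR-181b RNA (circles) and control RNA (squares) on array 1 (left) and array 2 (right). Intensities of different probes cannot be set against each other. Within Il10 and Ccl4 the circle lies below the square on both arrays, and within Ccl22 above it.

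Tnf encodes tumour necrosis factor, an inflammatory ligand released from the membrane by the protease ADAM17. Its normalised intensity was 1155 in miR-181b RNA against 1233 in control RNA on array 1, and 1216 in miR-181b RNA against 912 in control RNA on array 2. The ratios of -0.09 and 0.42 gave 0.16 ± 0.25. All 10 spots were below 0 on array 1, from -0.13 to -0.03, and all 10 were above 0 on array 2, from 0.38 to 0.46. The spots of 1 array thus lay close together (SD 0.035 and 0.028), while the arrays stood on opposite sides of 0.

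Lta encodes lymphotoxin alpha, a ligand needed for lymph node formation, which is secreted alone or held at the membrane by lymphotoxin beta. Its normalised intensity was 1273 in miR-181b RNA against 1185 in control RNA on array 1, and 1111 in miR-181b RNA against 1222 in control RNA on array 2. The mean was -0.02 ± 0.12. All 10 spots lay above 0 on array 1 and all 10 below 0 on array 2, the reverse of Tnf. Of the 137 probes printed 10 times, 33 (24.1%) had all spots of 1 array on the other side of 0 from all spots of the other array. Their median spot SD was 0.050 on array 1 and 0.041 on array 2, against a median distance of 0.092 between an array and the mean.

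**Figure D3:**
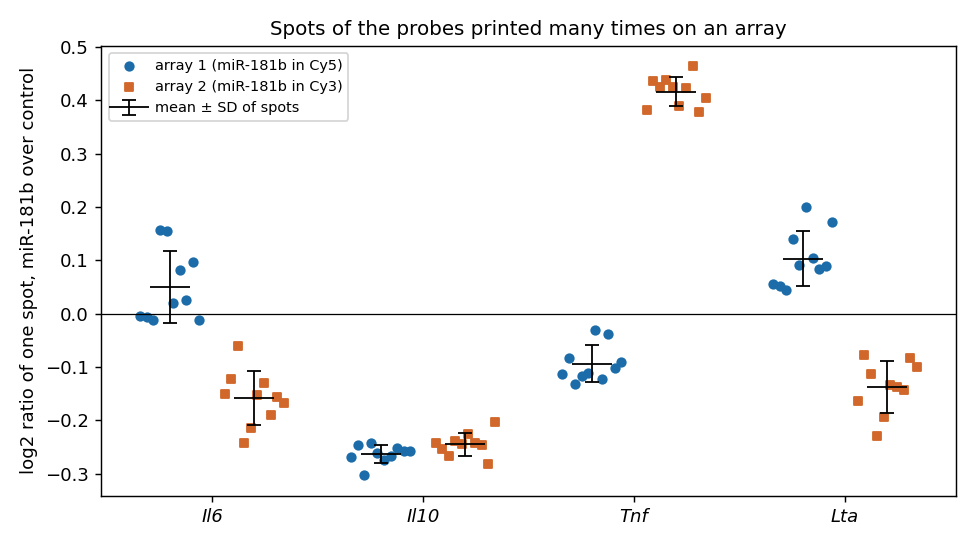
Log2 ratio of miR-181b over control RNA for every spot of the 4 members printed 10 times, on array 1 (circles) and array 2 (squares), with the mean and SD of the spots. All 20 Il10 spots lie below 0, and the Tnf and Lta spots lie on opposite sides of 0 on the arrays.

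Ltb encodes lymphotoxin beta, which holds lymphotoxin alpha at the cell surface for the lymphotoxin beta receptor of stromal cells. Its normalised intensity was 47023 in miR-181b RNA against 84591 in control RNA on array 1, and 74407 in miR-181b RNA against 41897 in control RNA on array 2. The ratios were -0.85 and 0.83, with a mean of -0.01 ± 0.84. The spot was saturated in Cy5 on both arrays, that is, in miR-181b RNA on array 1 and in control RNA on array 2, so the lower intensity fell to the saturated RNA each time. Saturation touched 440 measured genes. Neither array thus gave an Ltb ratio free of saturation. Ltb, Tnf and Lta are neighbours on chromosome 17 in RefSeq, in that order. On the arrays, Tnf and Ltb were below 0 on array 1 and above 0 on array 2, and Lta was the reverse.

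**Figure D4:**
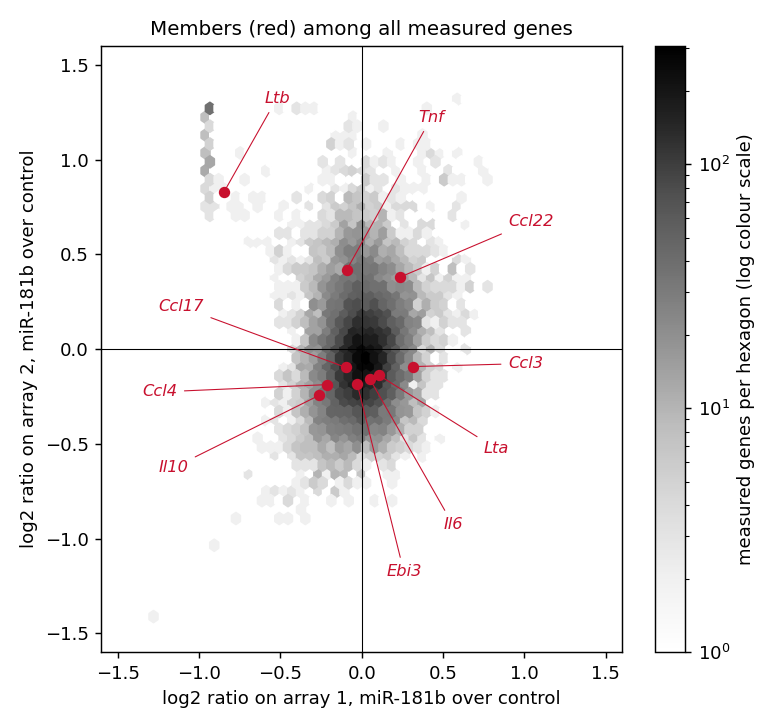
Log2 ratio on array 2 against that on array 1 (both miR-181b over control) for measured genes, shaded by the number of genes per hexagon (log colour scale), with the 10 members in red. Each axis is limited to an absolute log2 ratio of 1.6, which leaves out 8 genes. Il10, Ccl4, Ccl17 and Ebi3 lie in the lower left part and Ccl22 in the upper right, and Ltb lies at the upper left.

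Ccl3 and Ccl4 encode inflammatory chemokines, and activated B cells use them to attract T cells. The normalised intensity of Ccl4 was 1419 in miR-181b RNA against 1643 in control RNA on array 1, and 1380 in miR-181b RNA against 1572 in control RNA on array 2. Ccl4 was 1.15-fold lower in miR-181b RNA, with -0.21 and -0.19 on the arrays, and 9.90% of measured genes had a lower mean. That of Ccl3 was 813 in miR-181b RNA against 652 in control RNA on array 1, and 654 in miR-181b RNA against 697 in control RNA on array 2. Its ratios were 0.32 and -0.09, a mean of 0.11 ± 0.20. The genes lie side by side on chromosome 11, yet their ratios had the same sign only on array 2.

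Ccl22 and Ccl17 encode chemokines for CCR4, the receptor of T helper 2 and regulatory T cells, and IL-4 induces both. The normalised intensity of Ccl22 was 191 in miR-181b RNA against 162 in control RNA on array 1, and 163 in miR-181b RNA against 125 in control RNA on array 2. It was 1.24-fold higher in miR-181b RNA, with 0.24 and 0.38 on the arrays, and 94.7% of measured genes had a lower mean. Against the 1756 measured genes in the same intensity bin (bin 3 of 10, lowest first), Ccl22 stood at percentile 97.9, and 38 of them were at least as high. That bin's middle 95% ran from -0.31 to 0.30, so Ccl22 lay just past it. The same comparison was made for all 10 members, and each of the others lay within the middle 95% of its own bin. The Ccl22 spot was dim. Before any correction for dye, its mean signal over local background on array 1 was 153 in miR-181b RNA and 70.4 in control RNA. On array 2 the order was the other way, with 88.1 in miR-181b RNA and 93.2 in control RNA. The scanner's own log2 ratio, which adds no offset, was larger than the one above, at 0.53 and 0.74 (mean 0.63).

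Ccl17 was dimmer still, in the lowest intensity bin. Its normalised intensity was 118 in miR-181b RNA against 127 in control RNA on array 1, and 98.2 in miR-181b RNA against 105 in control RNA on array 2. The ratio was -0.10 on each array. Where each array was centred on its median without loess, all measured genes shifted to a median of -0.205. Relative to that shift Ccl17 stood at 0.13, Ccl22 at 0.45, Il10 at -0.42, Ebi3 at -0.32 and Ccl4 at -0.31, while Ccl17 itself was at -0.08. Tnf (-0.13) and Ccl3 (-0.15) were below 0 under that centring, and above 0 under loess. Relative to the shift of all measured genes Tnf stood at 0.07 and Ccl3 at 0.06. Cx3cl1, encoding a chemokine for patrolling and cytotoxic cells, lies between Ccl22 and Ccl17 on chromosome 8 and was at 0.24 ± 0.01.

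The scanner software gives each log ratio an error of its own, between 0.20 and 0.28 on the log2 scale for the members. Its ratio exceeded that error in 4 members on array 1 and in 6 on array 2. It did so with the same sign on both arrays in 2 members, Il10 (-0.24 and -0.29) and Ccl22. The error covers the array measurement and not the spread between cultures.

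Receptors and signal chains for these ligands were described as a list, in which 10 of 14 genes were measured. Of these, 1 was lower on both arrays and 4 were higher, with a median of 0.07. Il6st, the shared signal chain of the interleukin-6 family, was at 0.17 ± 0.03. The tumour necrosis factor receptor genes Tnfrsf1a and Tnfrsf1b were at 0.01 and -0.08, and a further probe of Tnfrsf1b was at 0.06. Ltbr, Ccr1, Ccr4 and Il12rb2 were not measured.

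Other chemokines had 11 of 30 genes on the array measured, 2 lower and 4 higher on both arrays (median 0.07). Xcl1, a chemokine for cross-presenting dendritic cells, was 1.54-fold lower in miR-181b RNA (-0.63 ± 0.11) and was the gene of this list past 1.5-fold. The Xcl1 probe was not among the probes above the median intensity, and the size of its ratio varied with the offset. With a normexp offset of 16, Xcl1 was at -0.86. The scanner's own ratio, which adds no offset, put Xcl1 at -1.54. Ccl5, a chemokine for T cells and monocytes, was at -0.22 ± 0.03. Ccl19, a ligand of the homing receptor CCR7, was at 0.53 ± 0.27, and a further probe of it at 0.07. Other cytokines had 25 of 48 genes measured, 7 lower and 4 higher on both arrays (median -0.01), and 0 reached 1.5-fold. Csf1, the macrophage growth factor, was at -0.41 ± 0.11 and Tnfsf9, the ligand of 4-1BB, at -0.27 ± 0.04. Tnfsf4, encoding OX40 ligand, was at 0.39 on each array, and Tnfsf18, the ligand of GITR, at 0.27 ± 0.18. The family members beside the 10 genes thus stood on both sides of 0, as the 10 did.

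Of transcription factors and kinases upstream of cytokine genes, 26 of 27 were measured, 7 lower and 6 higher on both arrays (median 0.04), and 0 reached 1.5-fold. Stat3, the factor downstream of interleukin-6 and interleukin-10, was at -0.47 ± 0.07 by its brightest probe and at -0.03 by another. Bcl3, an NF-kappaB cofactor, was at -0.20 ± 0.02. Irf4, a factor of plasma cell formation, was at 0.36 ± 0.19 and Cebpb, a factor known to induce Il6, at 0.24 ± 0.05. Of proteins that bind or cut cytokine messengers, with the protease of Tnf and its upstream kinases, 16 of 16 were measured, 5 lower and 3 higher (median 0.02), and 0 reached 1.5-fold. Tia1, a translational silencer of Tnf, was at -0.35 ± 0.06, with further probes from -0.41 to -0.13, and Ago2, the slicer of the silencing complex, at -0.28 ± 0.02, with further probes from -0.27 to 0.12. Hnrnpd, which binds AU-rich elements, was at 0.31 ± 0.02, with a further probe at 0.29. Khsrp, which promotes decay of such messengers, was at 0.21 ± 0.15 by its brightest probe and at -0.002 by another.

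**Figure D5:**
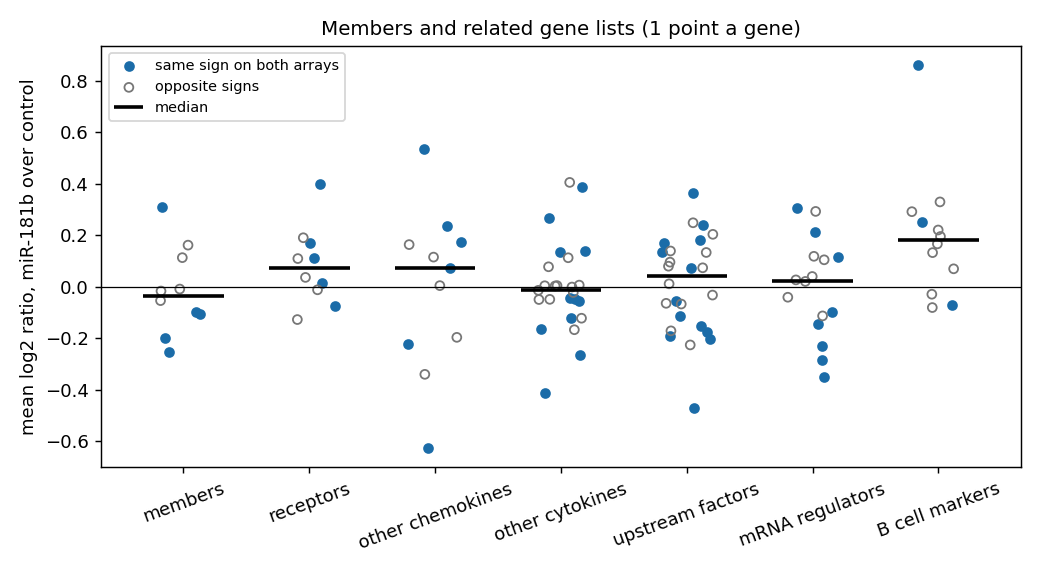
Mean log2 ratio (miR-181b over control) of each measured gene in the members, receptors, other chemokines, other cytokines, upstream factors, mRNA regulators and B cell markers, with the median as a bar. Filled points had the same sign on both arrays and open points opposite signs. Genes of every list lie on both sides of 0.

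The cells were checked against marker lists. All 12 of 12 B cell markers were measured, 3 of them saturated in some channel. On both arrays 1 was lower and 2 were higher, and 1 was past 1.5-fold: Cd79a, a chain of the B cell receptor, at 0.16 and 1.56 (mean 0.86 ± 0.70). Array 1 gave them a median of -0.27 and array 2 one of 0.65. Markers listed for other cells that make these cytokines gave signal too. Whether that signal came from such cells or from the B cells was not tested. Measured were 11 of 12 T cell, 7 of 11 macrophage or monocyte, 7 of 10 dendritic cell, 4 of 9 natural killer cell and 8 of 13 granulocyte or mast cell markers, with medians of 0.07, -0.02, -0.01, 0.23 and -0.03. Summed over its 7 measured markers, the macrophage list had an intensity of 4512 in miR-181b RNA against 4352 in control RNA on array 1, and 4012 in miR-181b RNA against 4029 in control RNA on array 2. Of those 7 macrophage markers, 2 were lower and 2 higher on both arrays, so the sums do not describe each marker. Fcgr1, Mrc1, Ccr2 and Msr1 of that list were not measured. Summed over 4 measured markers, the natural killer list had 2460 in miR-181b RNA against 2015 in control RNA on array 1, and 2576 in miR-181b RNA against 1851 in control RNA on array 2, and Ncr1, Gzma and Gzmb were not measured. Of those 4, 0 were lower and 3 higher on both arrays. Among probes above the median intensity, Il2rb (0.45 ± 0.10) alone of this list remained, so it weighed most in the sums. With no filter on dim probes the median of the natural killer list was 0.03. Summed over 8 measured markers, the granulocyte and mast cell list had 18471 in miR-181b RNA against 11993 in control RNA on array 1, and 19012 in miR-181b RNA against 11970 in control RNA on array 2. Of those 8, 3 were lower and 3 higher on both arrays, and 1 was past 1.5-fold: Prg2, encoding a granule protein of eosinophils, at 0.67 and 0.72 (mean 0.70 ± 0.02, 1.62-fold higher). Among probes above the median intensity, Prg2 alone of this list remained. It therefore weighed most in the sums, which do not describe the list as a whole. Elane, S100a8, Camp, Cpa3 and Kit were not measured. The T cell list, summed over 11 markers, had 12668 in miR-181b RNA against 13047 in control RNA on array 1, and 11925 in miR-181b RNA against 11376 in control RNA on array 2. The dendritic cell list, summed over 7, had 11851 in miR-181b RNA against 14562 in control RNA on array 1, and 13170 in miR-181b RNA against 10719 in control RNA on array 2. The T cell and dendritic cell sums thus differed in opposite directions on the arrays. Cd79a, Prg2 and Il2rb were singled out after their values were seen. Under median centring without loess Cd79a and Prg2 stood at 0.47 and 0.29, short of 1.5-fold. The part of such cells in the members' ratios was not tested. In these bulk RNAs, fewer cells making a cytokine and less messenger per cell cannot be told apart.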

How the data were processed

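Per the labels, each labelling used 2 µg of RNA, with integrity numbers of 9.7 to 9.8. Agilent Feature Extraction 9.1.3.1 made the scanner files, per the file headers. The deposited values used were spot and local background intensity in Cy3 and Cy5, uncorrected, the log10 ratio of Cy5 over Cy3 with its error, and the spot flags. Processed intensity after background subtraction and lowess, also given per the file headers, was not itself used. The software and settings behind the authors' own table of log2 ratios are not given in the sources used here. That table was not used, because its row identifiers matched no probe column.

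Each array had 45018 spots, 43379 of them not controls, for 41174 probes. The share of spots well above background was 64.7% to 67.7% per channel. The number of arrays limits the precision. Normexp background correction (offset 50) and loess normalisation within each array (span 0.3, controls at weight 0) were run with limma 3.58.1 in R 4.3.3. Before loess the median log2 ratio was 0.98 on array 1 and -0.44 on array 2. Outlier spots (7 and 21) were dropped and saturated ones kept. Ratios were turned to miR-181b over control. Spots of a probe were averaged, and the brightest measured probe stood for a gene. Tables and figures were made with Python 3.11.15, pandas 2.3.3 and matplotlib 3.10.9. The steps were tested on simulated arrays.

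RefSeq named 22951 probes through their accession, 6659 through their symbol and 3109 through a synonym, while 8455 kept the file's name. Sequences came from RefSeq (GRCm38.p6) or the scanner files. No genome was used, and gene order is from RefSeq. The text names all members, every measured partner chain of Ebi3, and per list the highest and lowest genes, up to 2 each way, with the same sign on both arrays. A result for 1 gene that this rule names is not reported here. Markers named as not measured were picked from their lists. The members and lists were chosen with earlier results of these data known. Alternatives were other background, normalisation, filter, probe and saturation rules, and each array alone.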

Additional observations from a re-analysis of the deposited data

How the results depend on the processing

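Under 8 of the 9 alternatives that used both arrays, all except median centring, 1 of 77 member values changed sign (Lta, 0.0085 with scaling between arrays) and 5 shifted further than the arrays' own spread. Of 96 list medians there, 13 moved and 13 changed sign, and of 185 values of named list genes 18 moved and 0 changed sign. Median centring without loess gave a members' median of -0.32, 8 members lower on both arrays and 1 at least 1.5-fold lower (Il10, -0.62), with Tnf at -0.13 and Ccl3 at -0.15. All measured genes then stood at a median of -0.205, with 55.3% lower on both arrays and 5.17% at least 1.5-fold lower. Relative to that median Tnf stood at 0.07 and Ccl3 at 0.06. The same centring took named list genes from above 0 to below it, and the reverse was not seen. These were Il27 (-0.17), Il6st (-0.15), Cebpb (-0.09), Hnrnpd (-0.10), Khsrp (-0.16) and Irf4 (-0.004), all above the -0.205 of all measured genes. The scanner's own log ratio gave 1 member at least 1.5-fold higher (Ccl22, 0.63), as it did 1.29% of all measured genes. Among probes above the median intensity 0 members were higher on both arrays, since Ccl22 and Ccl17 were no longer included. At 2-fold, 0 members were lower and 0 higher. With either array alone, the median was -0.117 to -0.0602, and 6 to 7 members were lower and 3 to 4 higher. In each direction 0 to 1 passed 1.5-fold, which was Ltb, saturated in Cy5. Of all measured genes, 48.5% were lower and 51.5% higher on array 1 alone, and 54.4% and 45.6% on array 2 alone. Past 1.5-fold, 1.58% were lower and 0.592% higher on array 1 alone, and 1.47% and 5.03% on array 2 alone. The cause of the shifts under other settings was not tested. The deposited log2 table was not run as an alternative, since its rows could not be named. No paired analysis was possible because the arrays form 1 group. Offsets shrink dim genes such as Ccl22 and Ccl17, and with 1 RNA per vector no ratio can be told apart from variation between cultures.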
